A study of Homo sapiens with 15 samples.

Results

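PLD1, CCDC80, AMIGO2, DOCK10 and SI had the 5 largest rises after enzalutamide among the genes tested, on the scale of log2(CPM + 0.5). The values came from RNA sequencing of LNCaP prostate cancer cells. At a pseudocount of 0.1 CPM, DOCK10 was 5th and SI 7th, behind scarcer genes. The 5 members were picked by hand from their rises and from the clear separation of the libraries of both treatments. Their treatment difference is therefore a description and carries no test. All 5 were among the 17046 genes tested, of 17272 measured, which had a mean of at least 0.5 CPM (read counts scaled to library size) over the libraries. LNCaP is an established androgen-sensitive line from a lymph node metastasis of prostate cancer, and its androgen receptor carries a mutation. Cells were kept for 2 days in starvation medium with 10% charcoal-stripped serum, which is depleted of steroids. One group of 10 libraries then received the synthetic androgen R1881 at 1 nM with DMSO, and a second group of 5 libraries received R1881 at 1 nM with the androgen receptor antagonist enzalutamide at 2 µM. Both groups were harvested 22 h after treatment, both held R1881, and cells without R1881 were not analysed here. The titles of the R1881 + DMSO samples name DMSO, the treatment labels do not, and none of the sources used here names a vehicle for the enzalutamide samples.

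The androgen receptor is a transcription factor that enters the nucleus when it binds an androgen, raises the transcription of genes such as KLK3 (prostate-specific antigen), and lowers that of others. Enzalutamide competes with the androgen for the receptor, so genes held low by R1881 can rise when it is added. The members do unrelated work: PLD1 is a membrane lipid enzyme, DOCK10 switches on small GTPases of the cytoskeleton, AMIGO2 is a cell surface adhesion protein, CCDC80 is secreted into the extracellular matrix, and SI digests sugars at the surface of the small intestine.

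The sequences just before the gene starts are shown because the members shared a direction of change and differed widely in promoter composition. RefSeq (GRCh38.p14) gave 8 start sites for all 5 genes, and each window held the 250 bases before a start. The window of SI (chr3:165078497-165078746), that of the outermost start of DOCK10 (chr2:225042469-225042718) and that of 1 of the starts of AMIGO2 (chr12:47079960-47080209) were free of annotated exons of their gene. All are on the minus strand. The AMIGO2 window lies within the span of PCED1B, a gene on the plus strand, and the check covered exons of the same gene only. The windows of PLD1 and CCDC80 overlapped exons of other transcripts of the same gene by 231 and 157 bases, so 30 bases around their match to the androgen receptor half-site are given (chr3:171810662-171810691 and chr3:112641253-112641282, minus strand). Capitals mark matches, on either strand, to the androgen receptor half-site AGAACA or to TTTATG, the motif of caudal-type homeobox factors.
SI: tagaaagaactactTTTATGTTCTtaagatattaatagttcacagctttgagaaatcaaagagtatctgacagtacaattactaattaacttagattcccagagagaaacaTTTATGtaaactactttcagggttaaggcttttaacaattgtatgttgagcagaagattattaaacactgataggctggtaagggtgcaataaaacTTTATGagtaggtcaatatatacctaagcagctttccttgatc
DOCK10: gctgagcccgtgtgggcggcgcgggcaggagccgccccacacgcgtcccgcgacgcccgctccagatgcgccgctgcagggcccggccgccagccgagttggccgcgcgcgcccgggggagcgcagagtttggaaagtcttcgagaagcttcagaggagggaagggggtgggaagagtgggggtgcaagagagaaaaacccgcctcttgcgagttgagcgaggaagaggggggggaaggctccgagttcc
AMIGO2: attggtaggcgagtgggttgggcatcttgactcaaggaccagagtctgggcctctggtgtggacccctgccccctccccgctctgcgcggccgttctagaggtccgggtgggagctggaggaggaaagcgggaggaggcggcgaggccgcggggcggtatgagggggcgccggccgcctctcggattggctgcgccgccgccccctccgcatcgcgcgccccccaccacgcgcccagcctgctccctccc
PLD1: ctttgggaaaagAGAACAaggaacgcgggc
CCDC80: aagtacagtgtaAGAACAgactggaagaga

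The windows differed in composition. Those of PLD1, AMIGO2 and the outermost start of DOCK10 were rich in GC (69.2%, 73.2% and 70.4%) and held 27, 25 and 27 CpG dinucleotides, against a median of 58% GC and 11 CpG over 34943 RefSeq promoter windows of the same length. The windows of the inner starts of DOCK10 had 46.4% and 38% GC with 5 and 2 CpG, and which start was used was not tested. The window of CCDC80 had 42% GC and 1 CpG. The window of SI was AT-rich, with 31.6% GC and no CpG, and 2.398% of all windows had a lower GC content. The half-site began 196 bases before the start of PLD1, 127 before that of CCDC80 and 232 before that of SI, where it overlapped 1 of 3 copies of TTTATG. Of the 8 windows, of which those of AMIGO2 overlap each other, 3 held the half-site, against 12.4% of all windows. TTTATG was present in the windows of SI and CCDC80 and in 9.66% of all windows. The full androgen receptor element (2 half-sites facing each other 3 bases apart), the forkhead motif TGTTTAC and the TATA box motif TATAAA had no match in the 8 windows, against 0.00286%, 2.98% and 10.8% of all windows. The GC box CCGCCC, which is not capitalised above, was found in 4 of the 8 windows and in 42.5% of all. A match is a run of letters and does not show that a factor binds there.

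Library totals ranged from 15830745 to 24316740 reads with R1881 + DMSO and from 21188661 to 25416052 reads with R1881 + enzalutamide. One read was worth 0.0392 to 0.0677 CPM, so a gene under 0.5 CPM rested on only a few reads per library. The treatment was visible in known androgen-induced genes: KLK3 fell by 3.55 on the log2 scale (1588 ± 209.2 to 134.1 ± 7.66 CPM, SD, n = 10 and 5) and FKBP5, a chaperone of steroid receptors, fell by 4.99 (1502 ± 87.4 to 46.8 ± 3.11 CPM). All 7 markers of luminal prostate cells had values, their summed level was 5423 to 5981 CPM with R1881 + DMSO and 3546 to 3656 CPM with R1881 + enzalutamide, and none of 4 immune markers had a row in the table. In bulk RNA, fewer cells of a kind and less RNA per cell cannot be told apart. The methods text calls the libraries biological replicates, and neither it nor the labels say whether each came from a separate culture. The p-values given here therefore measure only the spread between these libraries.

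PLD1 rose the most and started from the lowest level. Phospholipase D1 cuts phosphatidylcholine into choline and phosphatidic acid, a lipid signal used in vesicle traffic and cell migration. The 10 R1881 + DMSO libraries held 2 to 8 PLD1 reads each (54 reads in all), or a lowest value of 0.135, a median of 0.273 and a highest value of 0.387 CPM. In the 5 R1881 + enzalutamide libraries PLD1 stood at 21.1, 16.8, 20.2, 19.8 and 17.8 CPM in replicates 1 to 5, from 453, 361, 445, 441 and 454 reads. The groups did not overlap, and the lowest enzalutamide library was 43.4 times the highest R1881 + DMSO library. Its mean level was 0.264 ± 0.0719 CPM (SD, n = 10) with R1881 + DMSO and 19.1 ± 1.79 CPM (SD, n = 5) with enzalutamide. Each R1881 + DMSO library held so few reads that the size of the rise was imprecise: the pooled reads gave a ratio of 71.6 with an exact 95% interval of 54.6 to 95.6, which covers counting error only. On the scale of log2(CPM + 0.5) used for all genes the rise was 4.69, which understates it, since the pseudocount of 0.5 exceeds every R1881 + DMSO value. On the recovered reads, edgeR gave 6.18.

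CCDC80 had the second largest rise on that scale and the tightest spread after enzalutamide. It encodes a secreted protein that associates with the extracellular matrix. With R1881 + DMSO its lowest value was 1.22, its median 1.52 and its highest 1.98 CPM, from 18 to 43 reads per library. With R1881 + enzalutamide replicates 1 to 5 stood at 37.2, 38.1, 34.8, 37.2 and 36.9 CPM, from 799, 819, 766, 829 and 940 reads. The 5 values had a coefficient of variation (CV) of 3.28%, and the lowest was 17.6 times the highest R1881 + DMSO value. The mean rose from 1.56 ± 0.276 to 36.8 ± 1.21 CPM, a log2 difference of 4.19 and a ratio of pooled reads of 23.4 (20.9 to 26.3).

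AMIGO2 is a transmembrane adhesion protein with leucine-rich repeats and an immunoglobulin domain. Its mean CPM with R1881 + DMSO was lower than that of every member but PLD1. The R1881 + DMSO libraries held 11 to 23 reads each, with a lowest value of 0.532, a median of 0.792 and a highest value of 1.08 CPM. After enzalutamide it reached 20.5, 17.2, 18.5, 17.1 and 17.3 CPM in replicates 1 to 5, from 441, 369, 407, 381 and 440 reads. No library of either group came near the other group. Its mean rose from 0.813 ± 0.171 to 18.1 ± 1.47 CPM, a log2 difference of 3.83 and a ratio of pooled reads of 22.3 (19.0 to 26.3).

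DOCK10 is a guanine nucleotide exchange factor that activates the small GTPases CDC42 and RAC1. Its R1881 + DMSO libraries held 12 to 33 reads, with a lowest value of 0.707, a median of 1.03 and a highest value of 1.60 CPM, the widest relative spread of the members (CV 28.3%). With R1881 + enzalutamide replicates 1 to 5 stood at 21.3, 18.3, 18.6, 19.8 and 20.5 CPM, from 457, 394, 408, 440 and 522 reads. Here too the groups were far apart, with the lowest enzalutamide library at 11.5 times the highest R1881 + DMSO library. The mean went from 1.08 ± 0.305 to 19.7 ± 1.25 CPM, a log2 difference of 3.70 and a ratio of pooled reads of 18.4 (16.03 to 21.3).

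SI had the highest mean level of the members in both groups, and with enzalutamide its libraries overlapped those of CCDC80. Sucrase-isomaltase splits sucrose and starch fragments at the brush border of enterocytes and is a marker of differentiated small intestine. With R1881 + DMSO it ranged from 2.01 through a median of 2.56 to 3.34 CPM, from 31 to 73 reads per library. With R1881 + enzalutamide it stood at 39.2, 36.0, 39.7, 40.1 and 38.1 CPM in replicates 1 to 5, from 842, 773, 872, 893 and 972 reads. The lowest of these was 10.8 times the highest R1881 + DMSO value. The mean rose from 2.59 ± 0.493 to 38.6 ± 1.66 CPM, a log2 difference of 3.68 and a ratio of pooled reads of 14.7 (13.4 to 16.1).

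**Figure D1:**
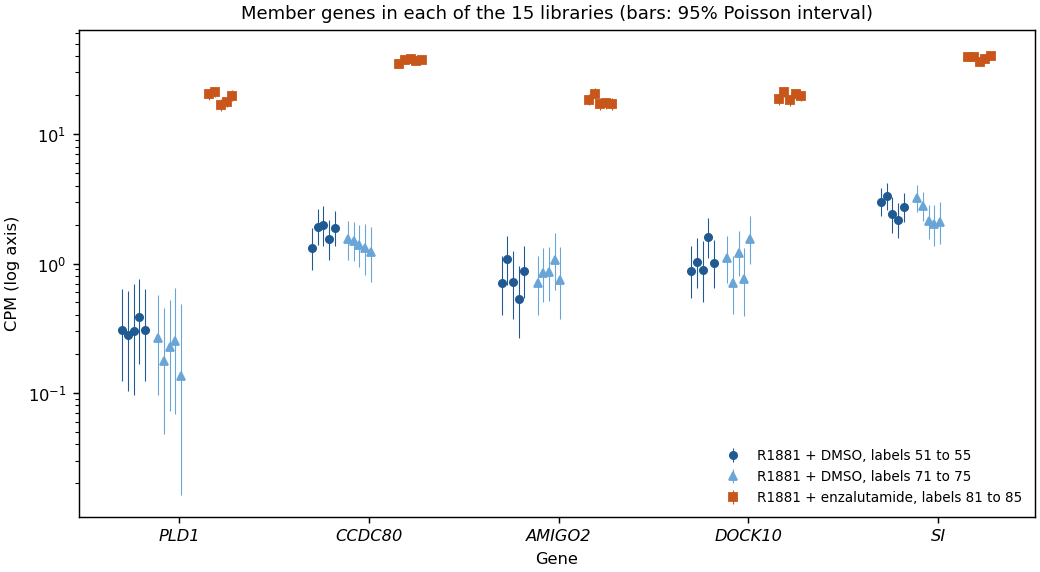
CPM (log axis) of each member gene in each library, with R1881 + DMSO libraries in blue (circles for label numbers 51 to 55, triangles for 71 to 75), R1881 + enzalutamide libraries in orange, and 95% Poisson intervals of the reads as bars. In every gene the 5 enzalutamide libraries sit at or above 16.8 CPM and the R1881 + DMSO libraries at or below 3.34 CPM.

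Together the members held 85 to 163 reads of a R1881 + DMSO library and 2716 to 3328 reads of an enzalutamide library, or a mean of 0.000592% and 0.0133% of all reads. Relative spread was larger with R1881 + DMSO than with R1881 + enzalutamide in every member, with CVs of 17.6% to 28.3% against 3.28% to 9.33%. The variance of the R1881 + DMSO reads was 0.367 (PLD1) to 1.84 (SI) times that expected from counting alone. With R1881 + enzalutamide the variance was 0.867 to 3.69 times that expected. The part of counting error in the wider spread was not tested. PLD1 in the enzalutamide libraries had 3.69 times the counting variance, the largest excess, with replicate 2 lowest at 16.8 CPM.

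All 5 members were higher in every enzalutamide library than in any R1881 + DMSO library, which held for 17.1% of all genes tested. At an adjusted p under 0.05 and at least 2-fold, 3.26% of all genes were higher. These shares are background to the choice of the members and nothing is read from them. Their choice also fixed their place among the 2090 genes of at least 5 CPM on average that rose without overlap, a level that the members passed only through their enzalutamide libraries. The last of them, SI at a log2 difference of 3.68, was followed by DAPK1, a calcium-regulated kinase linked to cell death, at 3.49 (1.63 ± 0.254 to 23.4 ± 2.19 CPM). IL1RN, the interleukin-1 receptor antagonist, followed at 3.32 and LRRN1, a neuronal leucine-rich repeat protein, at 3.29. OPRK1, the kappa opioid receptor, stood at 3.23 and COL5A2, a chain of type V collagen, at 3.17. LRRN1 and COL5A2 reached 307.9 ± 14.1 and 143.9 ± 5.05 CPM, levels far above those of the members. By pooled reads SI and DAPK1 were close, with ratios of 14.7 (13.4 to 16.1) and 14.4 (12.9 to 16.3, counting error only).

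**Figure D2:**
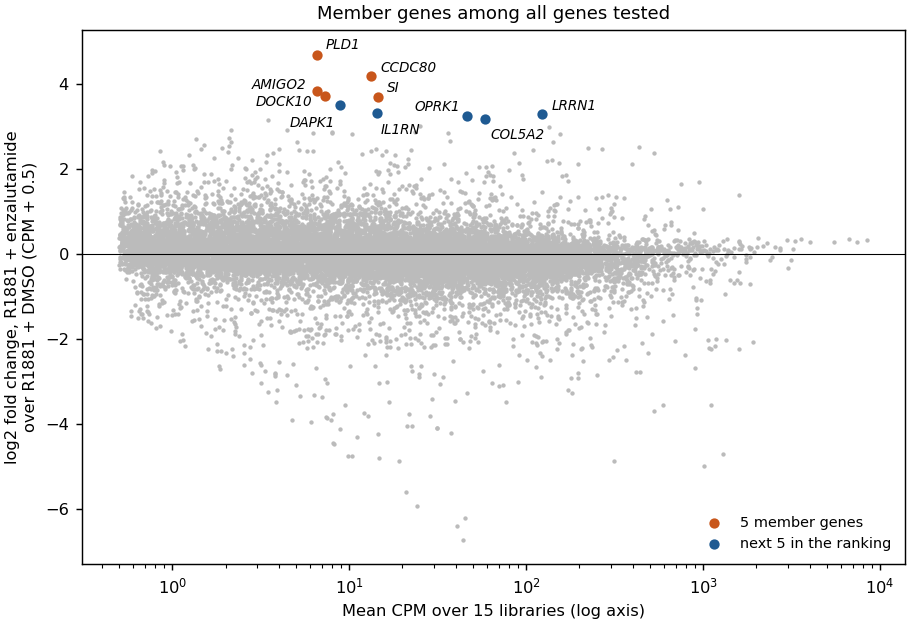
Log2 fold change of R1881 + enzalutamide over R1881 + DMSO against the mean CPM over 15 libraries (log axis) for the 17046 genes tested, one point per gene. The 5 members (orange) lie at 3.68 to 4.69 and the next 5 genes of the ranking (blue) between 3.17 and 3.49.

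The order within the set depended on how low values were treated. A pseudocount of 0.1 CPM moved PLD1 from 4.69 to 5.75 and AMIGO2 from 3.83 to 4.34, and one of 1 CPM moved them to 3.99 and 3.40. SI, with the most reads in R1881 + DMSO, moved least. At a pseudocount of 1 CPM the order became PLD1, CCDC80, SI, AMIGO2 and DOCK10, so ranks 3 to 5 changed with the pseudocount. Among all genes tested without a minimum level, 6 genes under 5 CPM exceeded SI in edgeR and in DESeq2 on the recovered reads. PLD1 stayed 1st in both. CCDC80 was 3rd, DOCK10 6th and SI 11th in both, and AMIGO2 was 4th in edgeR and 5th in DESeq2. At a pseudocount of 0.1 CPM DOCK10 was 5th and SI 7th.

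**Figure D3:**
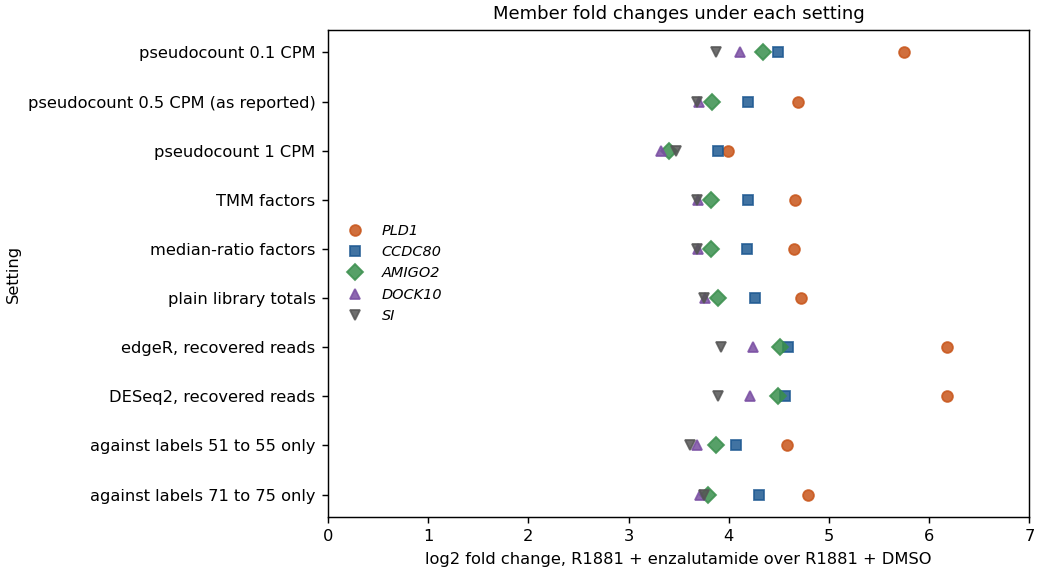
Log2 fold change of each member (x axis) under 10 settings of scaling, pseudocount, test and comparison group (y axis), one symbol per gene. PLD1 spreads from 3.99 to 6.18, and SI stays nearest to its reported 3.68.

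The 10 R1881 + DMSO libraries carried label numbers in a series of 51 to 55 and a series of 71 to 75. All 5 R1881 + enzalutamide libraries carried 81 to 85, and no source used here says what the numbers mark. Treatment and label series can therefore not be told apart, also against either R1881 + DMSO series alone. The split of the R1881 + DMSO libraries was not used to choose the members, so they were tested across it. The test was an exact two-sided permutation test, 5 against 5, whose smallest possible p is 0.00794. PLD1 was lower in the 71 to 75 series in every library, at 0.210 ± 0.0537 against 0.317 ± 0.0405 CPM (SD, n = 5 each, exact permutation p = 0.00794), which rested on 21 against 33 reads. It lay under the minimum of 0.5 CPM of that fit, and limma without the minimum gave an adjusted p of 0.312. Of the 16810 genes tested across the series 4.81% were lower in 71 to 75 without overlap, and 3.29% (553 genes) had an adjusted p under 0.05, a count that ran from 56 to 969 with 1 library left out. CCDC80 stood at 1.39 ± 0.131 against 1.73 ± 0.286 CPM (exact permutation p = 0.0556, limma adjusted p = 0.242).

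Neither AMIGO2 nor DOCK10 nor SI passed a threshold across the series. AMIGO2 differed by 0.07 on the log2 scale (exact permutation p = 0.611), DOCK10 by -0.03 (p = 0.865, exact) and SI by -0.14 (p = 0.333, exact), with limma adjusted p of 0.770, 0.930 and 0.537. A total of 5 such tests were run. Against the 51 to 55 series alone the ratio of medians was 64.2 for PLD1, 19.6 for CCDC80, 24.004 for AMIGO2, 19.5 for DOCK10 and 14.3 for SI. Against the 71 to 75 series alone the ratios were 88.0, 26.7, 20.5, 17.99 and 18.5 in the same order of genes.

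Per kilobase of canonical transcript, the members were low among the protein-coding genes tested with R1881 + DMSO. With enzalutamide they were still under the median of those genes. With R1881 + DMSO the order was PLD1 (0.0439 ± 0.0120 CPM per kilobase), CCDC80 (0.127 ± 0.0224), DOCK10 (0.148 ± 0.0418), AMIGO2 (0.252 ± 0.0529) and SI (0.430 ± 0.0819). The libraries of neighbours in that order overlapped, except those of PLD1 and CCDC80. These levels put PLD1 at percentile 0.190 and SI at percentile 6.91 of 12125 protein-coding genes tested. The genes tested had a mean of at least 0.5 CPM over all libraries. PLD1, at 0.264 CPM with R1881 + DMSO, passed that minimum only through its enzalutamide libraries. Genes as scarce with R1881 that did not rise were left out, so the minimum itself places PLD1 near the bottom. With R1881 + enzalutamide DOCK10 (2.70 ± 0.172), CCDC80 (2.995 ± 0.0983) and PLD1 (3.18 ± 0.297) lay close together with overlapping libraries. AMIGO2 (5.62 ± 0.456) and SI (6.42 ± 0.276) were higher than those and overlapped each other. The percentiles were then 24.6 for DOCK10, 26.2 for CCDC80, 27.3 for PLD1, 40.4 for AMIGO2 and 43.7 for SI. Dividing by all annotated exonic bases instead put PLD1 (1.92 CPM per kilobase) below CCDC80 (2.82).

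All 5 members lie on the minus strand, and 3 of them on the long arm of chromosome 3. In GENCODE v44 (GRCh38), PLD1 spans chr3:171600404-171810950 with 27 exons in its canonical transcript, SI chr3:164978898-165078496 with 48 exons, and CCDC80 chr3:112596797-112649530 with 8 exons. DOCK10 spans chr2:224765090-225042468 with 56 exons, and AMIGO2 chr12:47075707-47079959 with 3 exons. The positions share no neighbourhood, so each member was described with the 3 nearest tested protein-coding genes on either side.

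Of these 30 flanking genes 18 rose, 8 fell and 4 did not pass the test. Over all genes tested 62.5% passed it, 29.8% higher and 32.7% lower. Rises of at least 2-fold were seen in 6 of the 30 (20%), against 3.26% of all genes, and falls of at least 2-fold in 1, against 4.19%. The median log2 difference was 0.22, against -0.01 for all genes tested. The flanking genes were all protein-coding, while the background values cover all genes tested, coding or not. Values over protein-coding genes alone are not given. The flanking genes differed between members, and the 6 that rose at least 2-fold lay next to SI, CCDC80 and PLD1. Of these ATG3, BCHE and ZBBX lie beyond the nearest gene on their side and were singled out after their values were seen.

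CCDC80 had 6 of 6 flanking genes higher. SLC35A5, a nucleotide sugar transporter 11.2 kilobases away, went from 56.5 ± 2.25 to 119.0 ± 5.68 CPM (log2 difference 1.07, SE 0.04, limma adjusted p = 8.18e-16). ATG3, the enzyme that attaches LC3 to lipid in autophagy, lies 34.8 kilobases away and went from 60.2 ± 3.47 to 273.1 ± 11.1 CPM (log2 difference 2.17, SE 0.04, adjusted p = 2.50e-20). The libraries of the groups did not overlap for either gene. On the other side GTPBP8, a GTP-binding protein 341.5 kilobases away, rose by 0.41 (adjusted p = 3.87e-06).

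SI had 4 of 6 flanking genes higher and 1 lower. The nearest tested gene towards higher coordinates was SLITRK3, a synaptic leucine-rich repeat protein 108.2 kilobases away, which went from 30.7 ± 2.23 to 129.9 ± 6.39 CPM (log2 difference 2.06, SE 0.05, limma adjusted p = 1.18e-18). BCHE, which encodes butyrylcholinesterase, came next at 694.4 kilobases and went from 40.8 ± 5.17 to 159.9 ± 6.45 CPM (log2 difference 1.97, adjusted p = 2.99e-15). ZBBX, 2161 kilobases away, rose by 1.11. On the other side the nearest tested gene, NMD3, an exporter of the large ribosomal subunit, was 3725 kilobases away and fell by 0.42.

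PLD1 had 4 of 6 flanking genes higher and 2 lower. TNIK, a kinase of the Wnt pathway 140.0 kilobases away, went from 2.10 ± 0.284 to 6.45 ± 0.283 CPM (log2 difference 1.42, SE 0.09, limma adjusted p = 5.95e-12). FNDC3B, on the other side, fell by 0.33. AMIGO2 had 3 higher and 3 lower, and its nearest neighbour towards lower coordinates moved strongly the other way. SLC38A4, an amino acid transporter 243.3 kilobases away, held 1460 reads over the R1881 + DMSO libraries (7.16 ± 0.829 CPM) and 1 read over the enzalutamide libraries, 4 of which were at 0 (limma adjusted p = 2.40e-19). The pooled reads gave an 814-fold lower level with a counting interval of 146 to 32169.

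The nearest tested gene of AMIGO2 on the other side, RPAP3, a cochaperone of RNA polymerase assembly, rose by 0.12 (adjusted p = 0.0229), a call lost against the 51 to 55 series alone and without any 1 of enzalutamide replicates 1, 3, 4 or 5. DOCK10 had 1 of 6 flanking genes higher and 2 lower. Its nearest neighbour CUL3, a ubiquitin ligase scaffold 179.7 kilobases away, had a log2 difference of 0.11 (adjusted p = 0.0693), which passed the threshold under TMM, median-ratio and plain-total scaling, in edgeR and in DESeq2. IRS1, the insulin receptor substrate on the other side, fell by 0.76.

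**Figure D4:**
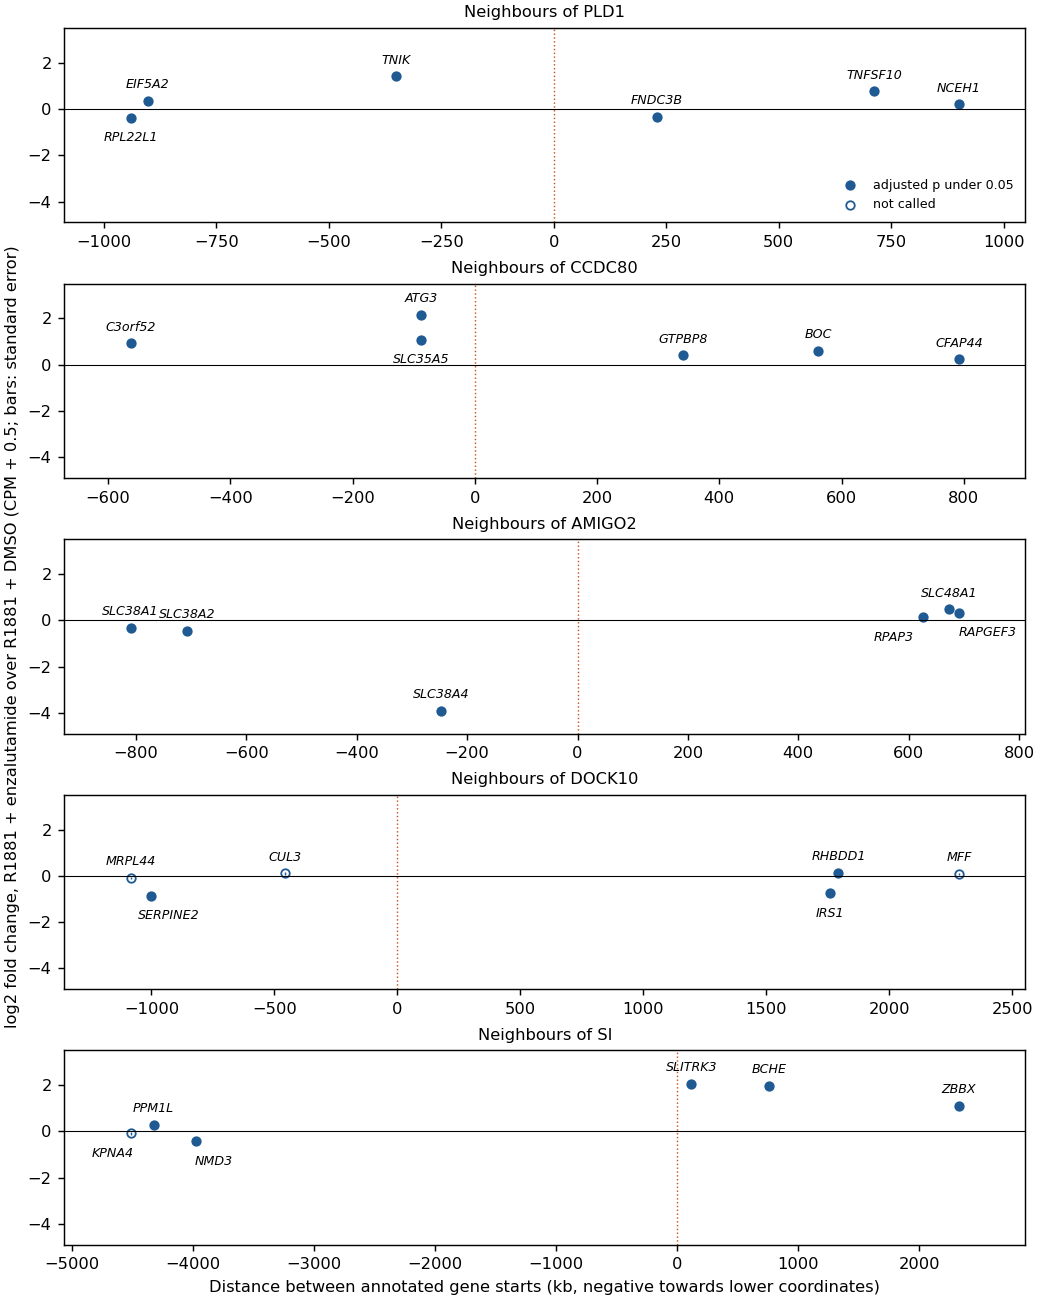
Log2 fold change of R1881 + enzalutamide over R1881 + DMSO (y axis, bars standard error) of the 6 flanking genes of each member, against the distance between annotated gene starts in kilobases (x axis, member at the dotted line). Filled points passed the test, and the 6 rises of at least 2-fold are TNIK by PLD1, ATG3 and SLC35A5 by CCDC80, and SLITRK3, BCHE and ZBBX by SI.

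One tested gene overlapped a member. PCED1B lies on the plus strand, head to head with AMIGO2, and shares 357 bases with it. It went from 0.253 ± 0.0871 CPM (51 reads in 10 libraries) to 3.24 ± 0.280 CPM (367 reads in 5 libraries), a log2 difference of 2.32 (SE 0.10, limma adjusted p = 2.62e-14), and the libraries did not overlap. The library kit keeps the strand, and no source used here says whether it was used in counting. Reads of AMIGO2 and PCED1B in the shared bases can therefore not be told apart without the strand, and PCED1B had the smaller count of both.

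Neither tested relative of PLD1 passed the test, and no row was present for PLD4, PLD5 and PLD6. PLD2, the other classical phospholipase D, stood at 21.7 ± 2.32 CPM with R1881 + DMSO and 24.1 ± 3.10 CPM with enzalutamide (log2 difference 0.15, limma adjusted p = 0.112). PLD3, a nuclease of lysosomes, stood at 83.9 ± 15.4 and 96.7 ± 14.3 CPM (0.21, adjusted p = 0.0891). Both passed the threshold under plain-total scaling and against the 51 to 55 series alone.

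Of 12 tested activators of PLD1 (small GTPases, protein kinase C and lipid kinases), 3 rose, 7 fell and 2 did not pass the test. Their median log2 difference was -0.20, and over all genes tested 29.8% rose and 32.7% fell. PRKCA, protein kinase C alpha, fell by 2.17 (113.3 ± 6.08 to 24.7 ± 1.52 CPM, limma adjusted p = 6.62e-20). ARF1, a GTPase of the Golgi, fell by 0.58, and RALB, a GTPase of vesicle traffic, rose by 0.91 (47.98 ± 1.27 to 90.6 ± 2.29 CPM, adjusted p = 7.55e-16). Of 15 enzymes that make or remove phosphatidic acid and diacylglycerol, 4 rose, 7 fell and 4 did not pass. PLPP1, a phosphatase of phosphatidic acid at the plasma membrane, fell by 1.67 (531.9 ± 16.5 to 166.4 ± 6.80 CPM, adjusted p = 1.11e-20). LPIN1, a cytosolic phosphatase of the same lipid, fell by 0.82, and the diacylglycerol kinase DGKH rose by 1.30 (12.4 ± 1.14 to 31.2 ± 2.56 CPM, adjusted p = 6.04e-13).

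DOCK9, DOCK10 and DOCK11 form the subfamily that acts mainly on CDC42. DOCK11 fell from 278 reads (1.39 ± 0.274 CPM) to 22 reads (0.196 ± 0.0690 CPM), a 7.04-fold lower level by pooled reads with a counting interval of 4.56 to 11.4 (limma adjusted p = 5.10e-10). DOCK9 had a log2 difference of 0.15 (46.3 ± 2.04 to 51.5 ± 3.67 CPM, adjusted p = 0.00684), and its libraries overlapped. The call was lost with the replicate number as a block (0.13, adjusted p = 0.0583), a number that the treatments share by name only. DOCK8, an exchange factor known from immune cells, fell from 334 reads to 10 reads, an 18.6-fold lower level with a counting interval of 10.0 to 39.2 (adjusted p = 2.56e-11).

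Over the 8 tested relatives of DOCK10 that were listed, 3 rose, 3 fell and 2 did not pass the test. The shares over all genes tested were 29.8% higher and 32.7% lower. DOCK3 and DOCK4, which act on RAC1, rose by 0.60 and 0.29. DOCK5, also an exchange factor for RAC GTPases, fell by 0.44. DOCK1 and DOCK6 had log2 differences of 0.06 and 0.12 (adjusted p = 0.177 and 0.361). DOCK1 passed the threshold under plain-total scaling, in edgeR and against the 71 to 75 series alone. DOCK6 passed it against the 51 to 55 series alone (0.25, adjusted p = 0.0447) and turned its sign against the 71 to 75 series alone. Of 5 tested partners of DOCK proteins, LRCH1 (a leucine-rich repeat inhibitor of DOCK8) fell by 1.24 and ELMO2 (an adaptor of DOCK1) fell by 0.72, and 3 did not pass.

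**Figure D5:**
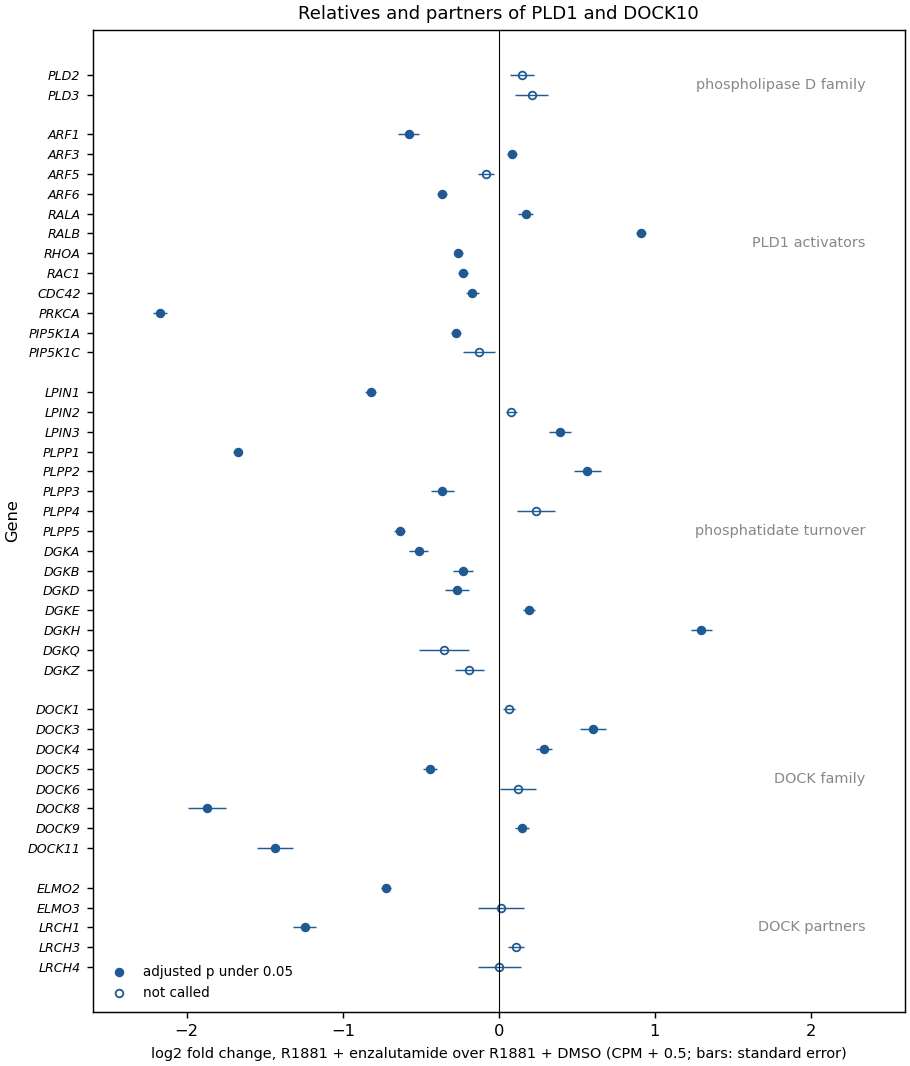
Log2 fold change of R1881 + enzalutamide over R1881 + DMSO (x axis, bars standard error) of tested relatives and partners of PLD1 and DOCK10, one gene per line, with filled points for an adjusted p under 0.05. None reaches the members' 3.68 to 4.69, and PRKCA, DOCK8, PLPP1 and DOCK11 lie at -1.43 or below.

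AMIGO1, the only tested relative of AMIGO2 in its family, rose by 0.49 (12.9 ± 0.694 to 18.4 ± 1.48 CPM, limma adjusted p = 1.46e-07). Among 10 tested adhesion proteins with leucine-rich repeats, of 23 listed, 6 rose and 2 fell, with a median log2 difference of 0.58. Over all genes tested 29.8% rose and 32.7% fell. SLITRK3, also the neighbour of SI, rose by 2.06 and LRRTM3, a synaptic adhesion protein, rose by 2.04 (4.16 ± 0.589 to 18.5 ± 0.998 CPM, adjusted p = 1.03e-14). LRIG1, a negative regulator of growth factor receptors, fell by 2.11 (247.9 ± 8.70 to 57.2 ± 2.50 CPM, adjusted p = 1.11e-21).

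CCDC80 is kin to SRPX and SRPX2, and neither had a row in the table. Of 38 listed genes of the extracellular matrix 22 were tested, of which 10 rose, 4 fell and 8 did not pass the test. Their median log2 difference was 0.17, and over all genes tested 29.8% rose and 32.7% fell. COL3A1, a fibrillar collagen chain, rose by 2.44 (1.84 ± 0.480 to 11.96 ± 0.979 CPM, limma adjusted p = 1.40e-12). COL5A2, a type V collagen chain, had a log2 difference of 3.17, as given in the ranking above. LAMA1, a laminin chain, fell by 2.33, from 741 to 37 reads (adjusted p = 9.49e-15).

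Some of these matrix genes also mark fibroblasts. Of 6 fibroblast markers 3 had a row (COL1A1, COL3A1 and LUM), and all 3 were higher with enzalutamide, with a summed level of 6.36 to 10.5 CPM against 21.2 to 26.7 CPM. COL1A2, DCN and PDGFRB had no row, and the part of such cells in the values of CCDC80 was not tested. The culture was an established line, and 1 of 3 endothelial markers (VWF) and 1 of 3 basal markers (KRT14) had a row, with summed levels of 2.08 to 2.84 against 2.84 to 3.35 CPM and of 0.706 to 1.44 against 0 to 0.279 CPM.

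Few other genes of the intestine had a row in the table. Of the related disaccharidases and glucosidases only GAA, the lysosomal acid glucosidase, had a row, and it stood at 44.3 ± 10.4 and 38.4 ± 9.35 CPM (log2 difference -0.20, limma adjusted p = 0.210). MGAM, MGAM2, LCT and TREH had no row. Of 14 genes of the intestinal brush border 3 had a row and 2 were tested: the peptidase DPP4 fell by 0.67 (adjusted p = 2.14e-07), and the peptidase MME, which prostate cells also express, rose by 0.14 (adjusted p = 0.0112), a call lost against the 51 to 55 series alone. The third, the sodium-glucose transporter SLC5A1, lay under the 0.5 CPM minimum, with 26 reads over the R1881 + DMSO libraries and 59 over the enzalutamide libraries, a ratio of pooled reads of 4.07 (2.53 to 6.73, counting error only), and its libraries overlapped. Of 5 tested intestinal transcription factors 2 rose and 2 fell, against 29.8% and 32.7% of all genes tested. KLF5 and KLF4, zinc finger factors of epithelia, fell by 1.62 and 1.32, and ISX, an intestinal homeobox factor, rose by 0.50 (1.52 ± 0.137 to 2.36 ± 0.395 CPM, adjusted p = 8.02e-05). HNF4G, a nuclear receptor of the gut also under that minimum, held 51 and 72 reads, a ratio of pooled reads of 2.53 (1.74 to 3.70), with overlapping libraries. Both were named after their values were seen.

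Over all lists together 83 relatives and partners of the members were tested, of 149 listed. Of these 30 rose (36.1%) and 28 fell (33.7%), against 29.8% and 32.7% of all genes tested. Their median log2 difference was 0.04, against -0.01 for all genes tested, so the shares were near the background. With plain library totals in place of the deposited scaling, 38 rose and 25 fell, and over all genes the calls shifted from 47.7% to 60.7% higher.

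Across the 15 libraries the genes with a profile most like that of each member were those with a similarly sharp difference between treatments. This likeness is a description, since the correlation of log2(CPM + 0.5), taken over 12163 other genes of at least 5 CPM, is set by the treatment and all points share their libraries. For PLD1 these were DDC (dopa decarboxylase, r = 0.999), MID1 (a microtubule-bound ubiquitin ligase, 0.999) and COLEC12 (a scavenger receptor, 0.998). For CCDC80 they were SLITRK3, MID1 and LRRN1 (0.998 each), and for SI COLEC12 (0.998), SERPINI1 (a serpin of neurons, 0.997) and SLC44A1 (a choline transporter, 0.997). For AMIGO2 they were COL5A2 (0.998), NIPSNAP3A (0.996) and TMEM38B (an ion channel of the endoplasmic reticulum, 0.996). For DOCK10 they were SUSD6 (0.995), RNF43 (a ubiquitin ligase of the Wnt pathway, 0.994) and CSMD1 (a membrane protein that limits complement, 0.994). SERPINI1 lies on chromosome 3, 2.66 megabases from SI, and went from 9.36 ± 0.832 to 45.7 ± 3.37 CPM.

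Between members, the correlations of their deviations from the treatment means over 15 libraries ran from -0.44 to 0.41 in 10 pairs, and they are a description, since the R1881 + DMSO values rest on few reads. The genes most like each member in these deviations were ORC1, an origin recognition subunit, for PLD1 (r = 0.890), GTDC1 for CCDC80 (0.897), OAT, an ornithine enzyme, for AMIGO2 (0.850), PGAP2, an enzyme of lipid anchors, for DOCK10 (0.795) and the pseudogene UBE2V1P2 for SI (0.916). With enzalutamide ORC1 fell by 1.08. COL5A2 was among the 3 most alike genes of AMIGO2 by both measures, with r = 0.769 for the deviations. These values are the highest of 12163 genes over few libraries and are given as a description.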

How the data were processed

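Polyadenylated RNA of LNCaP cells was sequenced as single-end reads in 15 libraries. The authors aligned the sequences to GRCh38 with STAR and used featureCounts to count them per gene. They deposited 1 table with a signal for each gene in each library, called CPM in their methods. Its columns summed to 985580 to 1078567, so it was treated as a scaled signal and was used as deposited, although the design had assumed plain CPM. The versions of both tools, the annotation, the use of the strand, the rule for the 17272 genes kept and the scaling are stated in no source used here. Every value (100%) was a whole multiple of 1 read within 0.01 reads, which gave the read counts printed in the text. Columns of no sample numbered 0. Same-treatment libraries differed by more than sampling noise in 55 of 55 pairs (chi-square divided by its degrees of freedom 1.63 to 27.2), so none was merged.

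Groups came from the sample labels. The methods text states the replicate numbers the other way round. Treatments were compared with limma 3.58.1 (R 4.3.3, trend) on log2(signal + 0.5), for genes with a mean of at least 0.5 CPM, with Benjamini-Hochberg adjustment over all genes tested and a threshold of 0.05. A fold change is on that scale, which understates the change of low genes. The members were chosen on this contrast and received no test in it. Members, gene lists and tests were chosen with earlier results of these data known. Named genes were the members, 4 androgen-induced genes, the members' families, the 3 largest called changes in each other list, the nearest tested gene on each side of a member and any that overlaps it, the 3 most alike genes by each measure, and the 5 genes next in the ranking. Of the rows, 84.9% were matched to 1 gene of GENCODE v44. Single values were tested with exact permutation tests (SciPy 1.17.1). Results for some listed genes are not reported here. Intervals of reads are exact and cover counting error only. Alternatives were other pseudocounts, filters, TMM, median-ratio and plain-total scaling, edgeR 4.0.16 and DESeq2 1.42.0 on the recovered reads, a replicate block, either R1881 + DMSO series alone, and each library left out. edgeR called 10744 genes and DESeq2 10552, against 10660 in limma.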

Additional observations from a re-analysis of the deposited data

Results flagged for a closer look

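Among the named genes, 156 groups of libraries were searched for single libraries that stand away from the rest of their treatment (gap over range above the critical value of Dixon's test), and 7 were found where chance gives about 7.8. None was a group of a member gene. The levels concerned are given in CPM.

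In R1881 + enzalutamide, replicate 2 was highest for PLD2 (29.58, the others 22.1 to 23.0) and lowest for RPAP3 (53.72, the others 63.0 to 66.4) and for MID1 (75.63, the others 85.4 to 88.0). Replicate 4 was highest for DOCK11 (0.3144, from 7 reads, the others 0.140 to 0.186) and for SLC38A4 (0.04491, from 1 read, the others 0). Replicate 3 was highest for LRRTM3 (20.29, the others 17.8 to 18.3). In R1881 + DMSO, replicate 1 was highest for RNF43 (10.5, the others 8.81 to 9.64).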

How the results depend on the processing

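The members' log2 differences kept their sign in every alternative. A pseudocount of 0.1 CPM gave 5.75 for PLD1, 4.49 for CCDC80, 4.34 for AMIGO2 and 4.11 for DOCK10, and one of 1 CPM gave 3.99, 3.89, 3.40 and 3.33. edgeR gave 6.18, 4.59, 4.51 and 4.24, and 3.92 for SI. DESeq2 gave 6.18, 4.56, 4.49 and 4.22. These fits add less or nothing to low values, so they move the genes with the fewest reads most. Leaving out 1 library gave 4.65 to 4.73 for PLD1, 4.16 to 4.22 for CCDC80, 3.79 to 3.86 for AMIGO2, 3.66 to 3.75 for DOCK10 and 3.65 to 3.72 for SI. Plain-total scaling moved the median of all genes from -0.01 to 0.07 and the calls from 5083 higher and 5577 lower to 6629 higher and 4288 lower. It turned the sign of CEP162 (0.0031), UBE2V1P2 (0.0175) and CCDC43 (0.0211). Against the 71 to 75 series alone CEP162 (0.0352) and DOCK6 (-0.0024) turned. None of these signs was past the threshold.

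Across the R1881 + DMSO series, limma called 553 genes and DESeq2 978, and 1 library left out gave 56 to 969. The count was 56 without replicate 9, 60 without 10, 74 without 7, 86 without 5, 283 without 8, 348 without 6, 353 without 4 and 969 without 3. With 1 library left out the difference of AMIGO2 between the series ran from -0.0026 (without replicate 1) to 0.1516, and that of DOCK10 from -0.1337 to 0.0768 (without replicate 1), with 0.0584 and 0.0444 without replicates 8 and 5. The cause was not tested.

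The replicate numbers are shared by name only (correlations of same-numbered libraries -0.11 to 0.13). R1881 + DMSO replicates 6 to 10 had no enzalutamide library of the same number, so they added nothing to the treatment difference of a block fit. With the replicate number as a block 10043 genes were called and the members stood at 4.68, 4.23, 3.87, 3.59 and 3.75. DOCK9 lost its call there, and PLD3 and CUL3 gained one. Of 1970 values of 73 named genes, 1935 kept their sign and side of the threshold. Depth limits the R1881 + DMSO levels of the members, most of all PLD1 at 2 to 8 reads per library.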
